A study of Homo sapiens with 6 samples.

Results

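The genes described here are 10 SMAD, ID and transforming growth factor beta (TGF-beta) feedback genes, namely *SMAD2*, *SMAD3*, *SMAD4*, *SMAD6*, *SMAD7*, *ID1*, *ID2*, *ID3*, *SKIL* and *TGFBR2*. They were taken by name from the 58735 Ensembl genes listed in each of 6 RNA sequencing (RNA-seq) libraries. All 10 had a mean of at least 1 FPKM (fragments normalised to exon length and library size) and were among the 13718 genes tested. The libraries came from SK-N-AS, an established human neuroblastoma cell line, that had received either a small interfering RNA (siRNA) targeting Prp19 (siPrp19) or the negative control (NC), 3 libraries each. Prp19, encoded by *PRPF19*, is a pre-mRNA splicing factor, and the study asked how its loss changes gene expression. The labels state 72 h of transfection, and a shorter time stands in the published methods. Both groups are transfected cells of a single line without any other allele or agent, and the study selected a single siRNA out of those it designed, so effects of the sequence itself cannot be told apart from loss of Prp19.

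Libraries are named here by the heading of their column of values (NCa, NCb, NCc, siPrp19a, siPrp19b and siPrp19c), and groups follow these headings. For 2 libraries the records contradict the headings. NCb is recorded under a sample labelled siPrp19 and siPrp19b under a sample labelled NC, and NCc and siPrp19a are recorded under another replicate number of their own group. Values are therefore also given for the 4 libraries left without NCb and siPrp19b, and for the 6 libraries grouped as recorded. *PRPF19* itself was at 83.0, 83.1 and 93.0 FPKM in NCa, NCb and NCc and at 19.6, 19.1 and 18.5 FPKM in siPrp19a, siPrp19b and siPrp19c. It was 77.9% lower under the siPrp19 headings (log2 fold change -2.12 ± 0.07 (SE), adjusted p = 0.000215 by limma) and thus went against the recorded label of these 2 libraries. Between 14887132 and 19977811 reads per library could be recovered from the FPKM values. By a chi-square statistic per degree of freedom, which is about 1 for sampling noise alone, NCa and NCb differed by 1.72 and siPrp19b and siPrp19c by 2.59, and every other pair by 18.1 to 46.6. No pair agreed within sampling noise, but the labels do not say whether the libraries of a close pair came from separate cultures, and p-values then measure only the spread between these libraries. Mitochondrial genes took 8.29% of the reads in siPrp19a and 5.15 to 5.49% in the other libraries. Of the 9 adrenergic and 7 mesenchymal neuroblastoma markers examined, 8 and 7 were expressed at a mean of at least 1 FPKM. The blood cell markers *CD3E* and *HBB* were listed at 0 in every library, while *PTPRC* was at 16.9 to 30.7 FPKM.

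TGF-beta and activin ligands act through pairs of serine/threonine kinase receptors. For TGF-beta, the type II receptor TGFBR2 binds ligand and activates a type I receptor, which phosphorylates SMAD2 and SMAD3. These join the shared partner SMAD4 and enter the nucleus. Bone morphogenetic proteins (BMPs) signal through other SMADs and are strong inducers of the ID genes, whose helix-loop-helix products lack a DNA-binding region and trap E proteins and other basic helix-loop-helix factors. The inhibitory SMAD6 and SMAD7 and the co-repressor SKIL (SnoN) damp the response, and their genes are themselves induced by it, which makes them common readouts of pathway feedback.

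In GRCh38, the genes lie at chr18:47808957-47931146 (*SMAD2*, minus strand), chr15:67063763-67195195 (*SMAD3*, plus), chr18:51028394-51085045 (*SMAD4*, plus), chr15:66702228-66782848 (*SMAD6*, plus), chr18:48919853-48952052 (*SMAD7*, minus), chr20:31605283-31606515 (*ID1*, plus), chr2:8678845-8684453 (*ID2*, plus), chr1:23557918-23559794 (*ID3*, minus), chr3:170357678-170396835 (*SKIL*, plus) and chr3:30606502-30694142 (*TGFBR2*, plus). SMAD3 and SMAD4 bind the short sequence GTCT, and BMP-activated SMADs prefer GC-rich elements such as GGCGCC. RefSeq windows of 300 bases (250 before and 50 after a transcript start, GRCh38.p14) were found for all 10 genes, 18 windows in all. GTCT was searched on both strands (as GTCT and AGAC) and was present in the first listed window of 9 of the 10 genes, against 84.0% of all 35116 human windows. GGCGCC, its own reverse complement, was present in 4 of the 10, against 19.2% of all windows. The palindrome GTCTAGAC, which holds GTCT and AGAC back to back, was present in 1 of the 10, that of *SMAD6*, and in 0.202% of all windows. All windows include further starts of a gene, so these shares are not like for like with first listed windows. Of the further windows of the 10 genes, that of *SMAD2* held GGCGCC, and those of *SMAD3*, *SMAD7* and *TGFBR2* held none. The windows of *SMAD3*, which passed the test, of *SMAD6*, with the palindrome, of *SKIL*, with separate groups, and of *ID1*, the most abundant member, are shown 5′ to 3′ on the strand of the gene, with GTCT, AGAC and GGCGCC in capitals. They lie at chr15:67065352-67065651 (plus strand, the first of 5 listed starts), chr15:66701986-66702285 (plus strand), chr3:170357465-170357764 (plus strand) and chr20:31605039-31605338 (plus strand).
SMAD3: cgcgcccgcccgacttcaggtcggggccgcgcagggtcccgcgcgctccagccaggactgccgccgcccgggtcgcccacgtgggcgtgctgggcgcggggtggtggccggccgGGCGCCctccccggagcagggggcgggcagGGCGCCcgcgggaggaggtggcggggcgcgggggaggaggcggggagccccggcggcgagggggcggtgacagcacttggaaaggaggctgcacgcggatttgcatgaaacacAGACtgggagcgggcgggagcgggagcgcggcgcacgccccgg
SMAD6: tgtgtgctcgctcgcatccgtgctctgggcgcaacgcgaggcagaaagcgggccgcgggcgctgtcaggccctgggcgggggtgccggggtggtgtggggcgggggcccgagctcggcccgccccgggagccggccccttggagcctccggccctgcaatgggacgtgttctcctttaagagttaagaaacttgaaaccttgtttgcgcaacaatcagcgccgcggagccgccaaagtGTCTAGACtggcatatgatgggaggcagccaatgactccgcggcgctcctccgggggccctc
SKIL: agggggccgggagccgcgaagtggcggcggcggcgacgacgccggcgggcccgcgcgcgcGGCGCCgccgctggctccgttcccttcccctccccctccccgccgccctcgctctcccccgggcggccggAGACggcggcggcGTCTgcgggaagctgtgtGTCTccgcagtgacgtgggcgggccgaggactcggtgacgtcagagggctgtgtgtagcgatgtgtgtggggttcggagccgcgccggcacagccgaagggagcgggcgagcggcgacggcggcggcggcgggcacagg
ID1: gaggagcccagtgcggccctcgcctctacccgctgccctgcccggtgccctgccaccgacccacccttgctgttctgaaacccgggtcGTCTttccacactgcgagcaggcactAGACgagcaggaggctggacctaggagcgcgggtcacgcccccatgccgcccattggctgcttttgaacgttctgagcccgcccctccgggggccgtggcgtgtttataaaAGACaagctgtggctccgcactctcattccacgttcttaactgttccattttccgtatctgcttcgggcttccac
These letters describe the windows only, and no binding was measured. The *SMAD3* window held GGCGCC 2 times and GTCT 1 time, the *SKIL* window GGCGCC 1 time and GTCT 3 times, and the *ID1* window GTCT 3 times. The first windows of *SMAD7*, *ID2* and *ID3* held GTCT 4, 2 and 2 times and no GGCGCC, and that of *SMAD4* held GGCGCC 1 time and no GTCT.

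The clearest difference was in *SMAD3*, which encodes a SMAD activated by TGF-beta and activin receptors. *SMAD3* was at 28.4, 28.4 and 24.3 FPKM in NCa, NCb and NCc, and at 36.1, 34.6 and 34.7 FPKM in siPrp19a, siPrp19b and siPrp19c. Every siPrp19 library lay above every NC library. *SMAD3* rose by 30.2%, from 27.0 ± 2.36 to 35.1 ± 0.818 FPKM (SD, n = 3), with a log2 fold change of 0.37 ± 0.08 (SE) and an adjusted p of 0.0390 by limma. Of all tested genes, 7.94% passed an adjusted p of 0.05, made up of 2.57% higher and 5.37% lower in siPrp19. *SMAD3* was the only one of the 10 genes to pass. This call was lost in 5 of the 6 fits that left out a library (adjusted p up to 0.135) and held without NCc (adjusted p = 0.0283). Without NCb and siPrp19b, *SMAD3* differed by 0.42 ± 0.14 on the log2 scale (SE, adjusted p = 0.318 by limma). Grouped as recorded, it was 0.19 with an adjusted p of 1.00 by limma.

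*SMAD2*, which encodes the other SMAD activated by TGF-beta and activin receptors, was at 2.84, 2.97 and 2.83 FPKM in the NC libraries and at 2.42, 2.32 and 2.44 FPKM in the siPrp19 libraries, in the order a, b, c. *SMAD4*, which encodes the shared partner, was at 7.19, 7.48 and 6.66 FPKM in NC and at 5.70, 5.94 and 6.07 FPKM in siPrp19. For both genes the groups were separate, with all siPrp19 libraries lower. The difference was 16.8% for *SMAD2* and 17.0% for *SMAD4*. Neither passed the test, with log2 fold changes of -0.19 ± 0.07 (SE, adjusted p = 0.174 by limma) and -0.23 ± 0.07 (SE, adjusted p = 0.0923 by limma). Without NCc, which leaves only the close pair NCa and NCb as NC, the adjusted p of *SMAD4* was 0.0498 by limma. It was 0.146 to 0.274 in the other fits that left out 1 library. *SMAD3* was thus expressed at 3.94, 3.79 and 3.64 times the FPKM of *SMAD4* in NCa, NCb and NCc and at 6.33, 5.83 and 5.72 times in siPrp19a, siPrp19b and siPrp19c. This ratio is taken within each library and does not depend on the scaling between libraries. It was chosen after the values were seen. An exact permutation test on this ratio gave p = 0.1, the smallest value that 3 libraries against 3 allow. The ratios of *SMAD3* to *SMAD2*, *ID1* to *ID3* and *SMAD6* to *SMAD7* were also higher in every siPrp19 library, with the same p by that test.

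**Figure D1:**
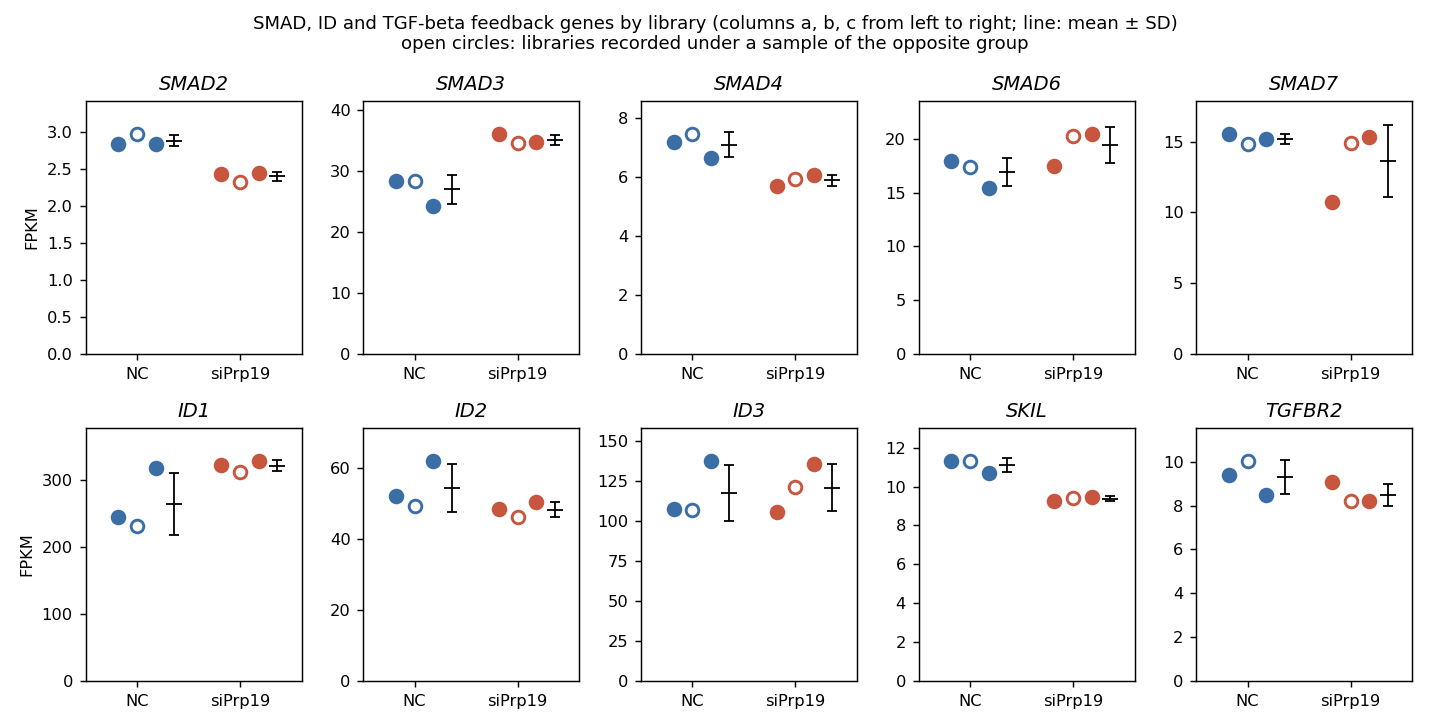
Expression of each gene in FPKM (vertical axes, starting at 0) in the 3 NC and 3 siPrp19 libraries, with the mean ± SD of each group beside the points and open circles for NCb and siPrp19b. The siPrp19 points lie above the NC points for *SMAD3*, below them for *SMAD2*, *SMAD4* and *SKIL*, and mixed with them for the other 6 genes.

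Among the genes of negative feedback, *SKIL* was at 11.3, 11.3 and 10.7 FPKM in NCa, NCb and NCc and at 9.24, 9.41 and 9.47 FPKM in siPrp19a, siPrp19b and siPrp19c. All siPrp19 libraries were below all NC libraries, by 15.7% on average. On the log2 scale it differed by -0.22 ± 0.06 (SE). Its adjusted p by limma was 0.0720, and 0.0449 without NCc. The inhibitory SMAD genes did not separate the groups. *SMAD6*, whose product acts mainly on BMP signalling, was at 17.9, 17.4 and 15.4 FPKM in NC and at 17.5, 20.2 and 20.5 FPKM in siPrp19, so that siPrp19a lay within the NC range. It differed by 0.19 ± 0.09 on the log2 scale (SE, adjusted p = 0.271 by limma). *SMAD7*, whose product blocks the type I receptor, was at 15.5, 14.8 and 15.2 FPKM in NC and at 10.7, 14.9 and 15.3 FPKM in siPrp19. The difference of -0.16 ± 0.13 on the log2 scale (SE, adjusted p = 0.516 by limma) rested on siPrp19a, the library with the larger mitochondrial share. Without siPrp19a, it was -0.01. The part of the mitochondrial share in the value of *SMAD7* was not tested.

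*TGFBR2*, the receptor at the top of the pathway, was at 9.39, 10.0 and 8.49 FPKM in the NC libraries and at 9.06, 8.19 and 8.20 FPKM in the siPrp19 libraries. The groups overlapped, and the log2 fold change was -0.12 ± 0.08 (SE, adjusted p = 0.434 by limma). It had the fewest reads of the 10 genes, between 636 and 810 per library.

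The ID genes were the most abundant of the set, and none of the 3 passed the test. *ID1* was at 245.5, 232.0 and 317.9 FPKM in NCa, NCb and NCc, and at 322.4, 312.9 and 329.4 FPKM in siPrp19a, siPrp19b and siPrp19c. The siPrp19 libraries were close together, and NCc lay among them. *ID1* differed by 0.29 ± 0.13 on the log2 scale (SE, adjusted p = 0.246 by limma). Without NCc, it was 0.43 with an adjusted p of 0.0193, and under quantile normalization of the 6 libraries it was 0.38 with an adjusted p of 0.0235 by limma. The fit without NCc keeps only the close pair NCa and NCb as NC. In the other fits that left out 1 library, *ID1* had adjusted p-values of 0.318 to 0.509 by limma.

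*ID2*, an ID family member studied in neuroblastoma and in neural crest development, was at 52.0, 49.1 and 62.0 FPKM in NC and at 48.3, 46.2 and 50.2 FPKM in siPrp19. *ID3* was at 107.4, 106.9 and 137.6 FPKM in NC and at 105.8, 121.0 and 135.4 FPKM in siPrp19. In both genes, NCc held the highest value of all 6 libraries, and the groups overlapped. The log2 fold changes were -0.16 ± 0.10 (SE, adjusted p = 0.380 by limma) for *ID2* and 0.04 ± 0.14 (SE, adjusted p = 0.880 by limma) for *ID3*. NCc exceeded the mean of NCa and NCb by 0.41 for *ID1*, 0.29 for *ID2* and 0.36 for *ID3* on the log2 scale, whereas it was below that mean for the other 7 genes, by at most 0.22. All 3 ID genes were thus higher in NCc than in its 2 group partners. *ID4*, the remaining family member, was at 0.397 to 0.853 FPKM and was not tested.

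**Figure D2:**
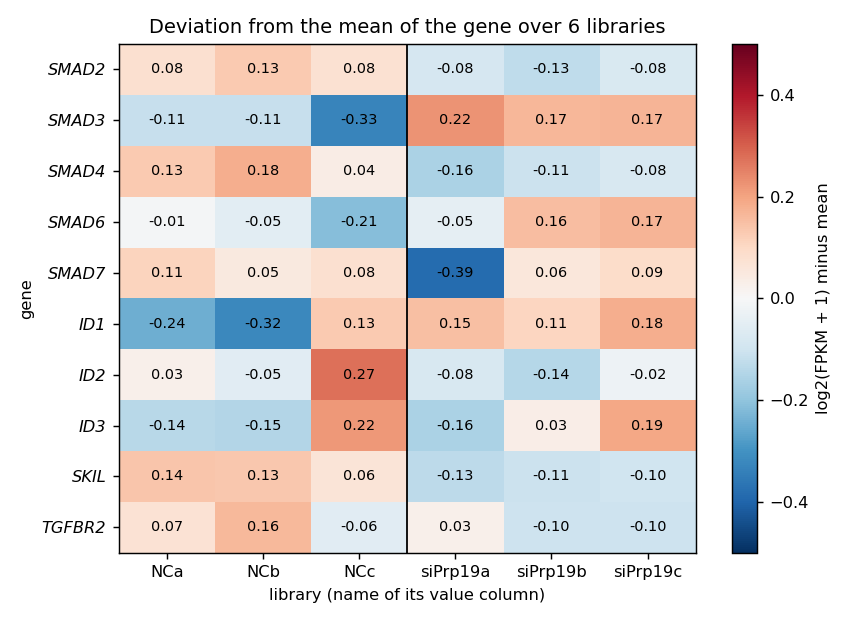
Deviation of each gene (rows) in each library (columns) from its own mean over the 6 libraries, in log2(FPKM + 1), with red above and blue below the mean. *SMAD3* changes sign at the line between the groups, as do *SMAD2*, *SMAD4* and *SKIL* the other way, while the 3 ID genes are red in NCc and *SMAD7* is darkest in siPrp19a at -0.39.

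Across the 10 genes, 1 rose and 9 did not pass the test. In 4 of them the groups did not overlap, 1 higher and 3 lower in siPrp19. Of all tested genes, 31.3% were without overlap, made up of 13.2% higher and 18.1% lower. The median log2 fold change was -0.14 over the 10 genes and -0.02 over all tested genes. By an exact permutation test (two-sided), p was 0.1 for *SMAD2*, *SMAD3*, *SMAD4* and *SKIL*, the smallest value that 3 libraries against 3 allow, and 0.2 to 1 for the other genes. In the 4 libraries left without NCb and siPrp19b, 0 of the 10 genes passed by limma, where 0.0146% of all tested genes passed, and 1 of the 10, *SMAD3*, had an unadjusted p under 0.05. The sign of 9 of the 10 log2 fold changes was the same as with 6 libraries, the exception being *ID3* at -0.02. With the 6 libraries grouped as recorded, 0 of the 10 genes passed by limma or had an unadjusted p under 0.05, and 0% of all tested genes passed.

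**Figure D3:**
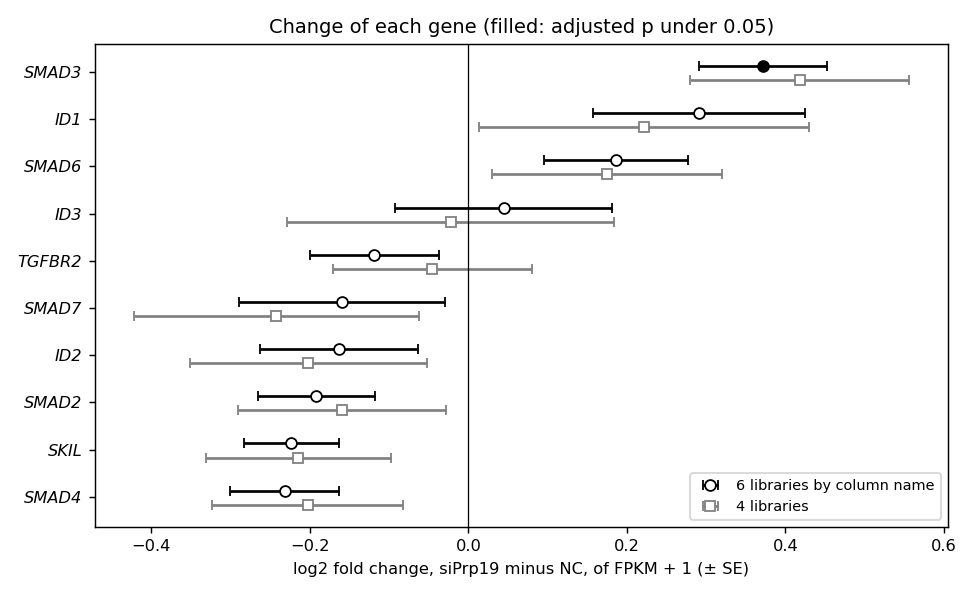
Log2 fold change of each gene (siPrp19 minus NC, on FPKM + 1, with SE) in the 6 libraries by column heading (circles) and in the 4 libraries without NCb and siPrp19b (squares). *SMAD3*, at 0.37 and 0.42, is the only gene drawn with a filled circle for an adjusted p under 0.05, and *ID3* is the only gene whose 2 estimates lie on opposite sides of 0.

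By level, the order in the NC libraries was *ID1* (265.1 ± 46.2 FPKM), *ID3* (117.3 ± 17.6), *ID2* (54.4 ± 6.74), *SMAD3* (27.0 ± 2.36), *SMAD6* (16.9 ± 1.30), *SMAD7* (15.2 ± 0.364), *SKIL* (11.1 ± 0.348), *TGFBR2* (9.31 ± 0.781), *SMAD4* (7.11 ± 0.413) and *SMAD2* (2.88 ± 0.0790), each with its SD over 3 libraries. Only *SMAD6* and *SMAD7* overlapped among neighbours in this order. Over all 6 libraries, *SMAD7* also overlapped *SKIL*, and *SKIL* overlapped *TGFBR2*. The low place of *SMAD2* rests in part on its length, since the annotation merges its exons into 36366 bases, against 9113 for *SMAD3*, and between 1393 and 1864 reads per library fell on it. The tested gene whose values over the 6 libraries were most like those of *SMAD3* was *PPM1E*, which encodes a protein phosphatase and was at 0.800 to 0.965 FPKM in NC and at 1.20 to 1.24 FPKM in siPrp19 (Pearson r = 0.999 on log2(FPKM + 1), n = 6 libraries). With so few libraries, 192 of 13717 other genes had an r above 0.95 with *SMAD3*.

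The rest of the TGF-beta and BMP pathway was examined with 6 lists of 104 further genes, of which 78 were expressed above the filter. Of these 78, 2 rose and 13 fell, or 19.2% against 7.94% of all tested genes. Their median log2 fold change was -0.09. The lists were chosen with earlier results of these data known, so these shares cannot show whether the pathway changed more than other genes. Among the ligands, 8 of 19 were tested, and 1 rose and 1 fell. *INHBA*, which encodes the subunit of activin A, was at 6.69, 6.66 and 4.78 FPKM in NCa, NCb and NCc and at 1.43, 1.42 and 1.56 FPKM in siPrp19a, siPrp19b and siPrp19c. Among the 78 tested list genes this was the largest fall, 4.11-fold, and the groups were far apart (log2 fold change -1.50 ± 0.12 (SE), adjusted p = 0.00225 by limma). *INHBE*, which encodes another activin subunit, rose from 1.30 ± 0.165 to 2.32 ± 0.375 FPKM (SD, n = 3, adjusted p = 0.0446 by limma). *TGFB1*, the main TGF-beta ligand gene in these cells, was at 55.3 to 65.7 FPKM in NC and at 67.1 to 77.2 FPKM in siPrp19, with an adjusted p of 0.107 by limma.

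Of the receptors other than *TGFBR2*, 10 of 12 were tested, and only *BMPR1B*, a type I BMP receptor, passed. It fell from 5.53 ± 0.556 to 3.40 ± 0.184 FPKM (SD, n = 3, adjusted p = 0.0128 by limma). *TGFBR1*, the partner of *TGFBR2*, differed by 0.01 ± 0.07 on the log2 scale (SE, adjusted p = 0.966 by limma). Among the other SMADs and nuclear partners, 13 of 14 were tested and *RUNX2*, a SMAD partner and regulator of bone development, fell from 6.54 ± 0.630 to 3.54 ± 0.353 FPKM (SD, n = 3, adjusted p = 0.00827 by limma). *SMAD1*, *SMAD5* and *SMAD9*, which carry BMP signals, did not pass, with log2 fold changes of -0.18, -0.19 and -0.0046.

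In the list of inhibitors and ubiquitin ligases, 4 of 23 tested genes fell and none rose. *GREM1*, which encodes a secreted BMP antagonist, was at 18.4, 18.4 and 18.0 FPKM in NC and at 9.26, 8.59 and 8.74 FPKM in siPrp19, a fall of 51.4% (adjusted p = 0.00174 by limma). Every siPrp19 library was well below every NC library. The co-repressor gene *TGIF2* fell by 32.0% (adjusted p = 0.0167 by limma), and *LTBP2*, which encodes a protein of the latent TGF-beta binding family, fell by 42.5% (adjusted p = 0.0112 by limma). *SKI*, the closest relative of *SKIL*, was at 10.6 ± 1.49 FPKM in NC and at 8.83 ± 0.768 FPKM in siPrp19 (SD, n = 3, adjusted p = 0.267 by limma). *BAMBI*, *SMURF1* and *SMURF2*, which encode further inhibitors, had adjusted p-values of 0.282, 0.898 and 0.674 by limma.

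Of 20 tested transcriptional targets, 5 fell and 1 rose. *CCN2*, *CDKN2B* and *LTBP2* fell, by 47.0%, 43.5% and 42.5%, with adjusted p-values of 0.0200, 0.0209 and 0.0112 by limma. *CCN2* rested on 37 to 82 reads and *CDKN2B*, which encodes a cell cycle inhibitor, on 73 to 145 reads per library. *MYC*, which TGF-beta represses in many cells, fell by 27.5% (adjusted p = 0.0141 by limma). The cell cycle inhibitor gene *CDKN1A* rose from 15.3 ± 0.596 to 24.3 ± 3.76 FPKM (SD, n = 3, adjusted p = 0.0216 by limma). *JUNB*, *KLF10* and *TGFBI*, which TGF-beta commonly induces, did not pass, with log2 fold changes of -0.16, 0.21 and -0.12.

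**Figure D4:**
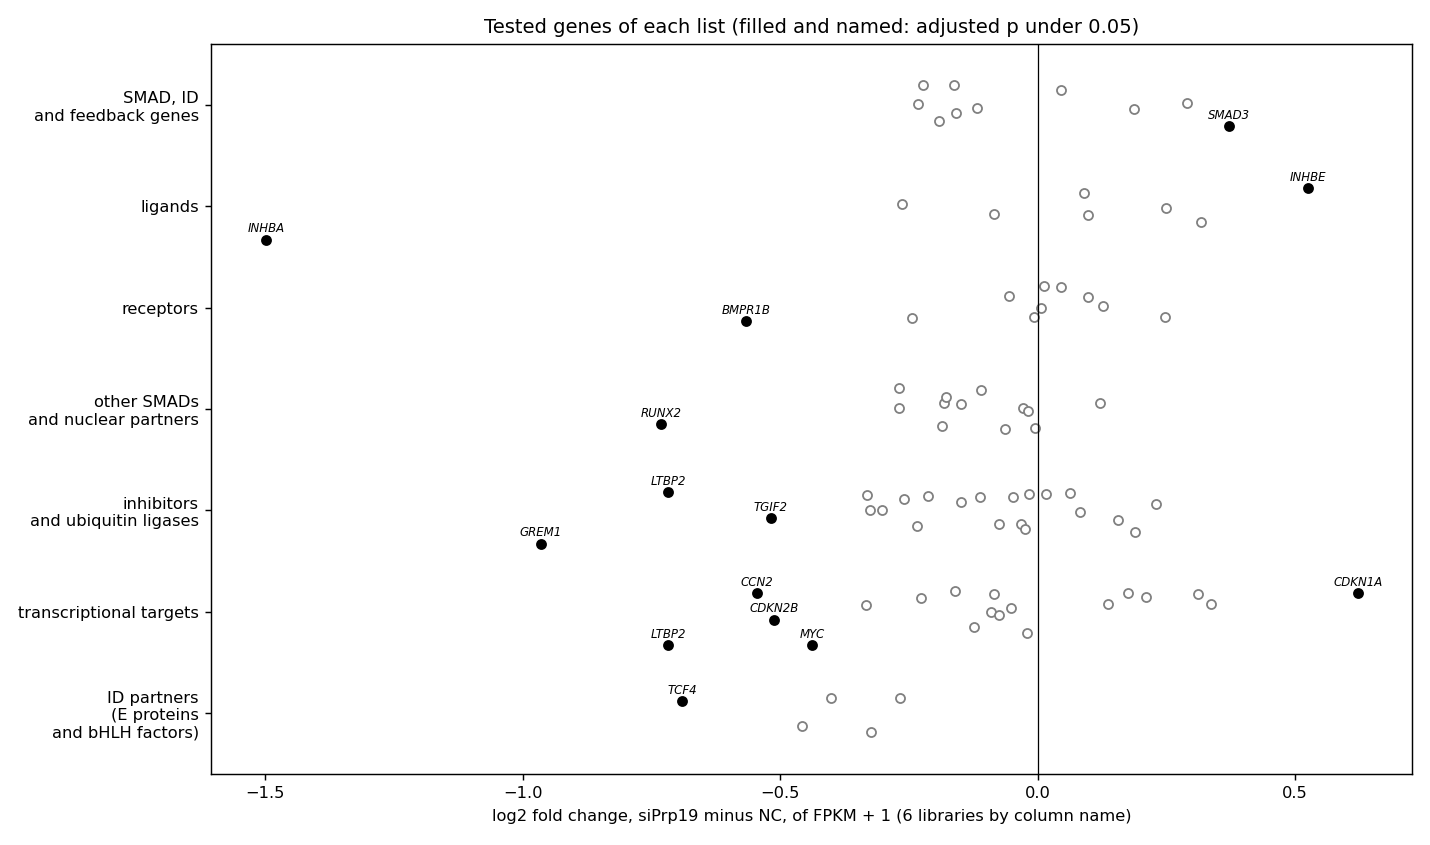
Log2 fold change (horizontal axis, siPrp19 minus NC, on FPKM + 1) of tested genes in the 10-gene set and the 6 further lists, a few of which are not shown, with filled, named points for an adjusted p under 0.05. *INHBA* at -1.50 is farthest to the left and *CDKN1A* at 0.62 farthest to the right, and *LTBP2* appears in 2 lists.

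Of the 8 listed partners that ID proteins bind, 6 were tested and 2 fell, against 5.37% of all tested genes called lower. In all 6 tested genes the siPrp19 libraries lay below the NC libraries without overlap, against 18.1% of all tested genes. This list too was chosen with earlier results known, so its shares cannot be read as an excess over other genes. *TCF4*, an E protein gene, fell from 14.7 ± 1.89 to 8.70 ± 0.816 FPKM (SD, n = 3, adjusted p = 0.0151 by limma). The E protein genes *TCF3* and *TCF12* had adjusted p-values of 0.0526 and 0.0667, and *HAND2* and *TWIST1* of 0.101 and 0.149, by limma. Without NCb and siPrp19b, 0 of the 78 genes of these lists passed, and the adjusted p of *INHBA* and *GREM1* was 0.0819 by limma. Grouped as recorded, 0 of the 78 passed. Of the 15 list genes that passed with 6 libraries, 5 also passed in each of the 6 fits that left out a library, among them *INHBA*, *RUNX2* and *GREM1*, and the other 10 did not pass in at least 1 of these fits. Without NCb and siPrp19b the log2 fold changes were -1.42 for *INHBA* and -0.94 for *GREM1*. Whether counting used strand was not given in the sources used here, so overlapping genes of the opposite strand could affect some values. Such genes overlap exons of *SMAD3* (ENSG00000259347), *ID2* (*ID2-AS1*), *GREM1*, *LTBP2*, *CCN2*, *CDKN1A* and *TCF4*. The same holds for *TGFB1*, *SMAD1*, *SMAD5*, *SMURF1*, *SMURF2*, *JUNB*, *HAND2* and *TWIST1*. *SMAD4*, *SMAD5* and *TGIF2* share exons with another gene on their own strand.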

How the data were processed

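RNA-seq of 6 SK-N-AS libraries was used. The authors deposited 1 table per library with 1 FPKM value per gene, and submitters' processing notes name HISAT2 2.0.5, featureCounts 1.5.0-p3 and hg38. Each column was assigned to the sample whose description equals its heading, which moved 4 of the 6 columns from the sample they are recorded under. Of 58735 identifiers, 58207 were matched to gene symbols in a name table and 528 only in GENCODE 29 (GRCh38). Whole reads were recovered because FPKM times merged exon length was a multiple of 1 constant per library (within 0.1 read for 100% of values).

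Genes with a mean of at least 1 FPKM were tested with limma 3.58.1 (R 4.3.3) on log2(FPKM + 1), which understates changes of low genes, allowing the variance to follow the mean, and p-values were adjusted over 13718 genes (Benjamini-Hochberg). In 6 simulated libraries, drawn independently at a dispersion of 0.01 with 200 genes changed 3-fold, 183 were recovered among 196 calls over 13744 genes. The other 13 calls were false. Close pairs and smaller changes were not simulated, so these counts do not measure recovery or false calls for the 10 genes. The genes and lists were chosen with earlier results of these data known. Named are the 10 genes, *PRPF19*, list genes past the threshold and the gene most like each called member. Other genes were named after their values were seen, and some genes of the lists enter the counts but are not reported here. Alternatives were another grouping, fewer libraries, averaged close pairs, other pseudocounts, filters, scalings and models, a replicate block and voom on the recovered reads. Python 3.11.15 was used.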

Additional observations from a re-analysis of the deposited data

How the results depend on the processing

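Of 186 log2 fold changes of *PRPF19* and the 10 genes from the alternatives, 163 stayed on the same side of 0 and of the threshold. Another 12 became weaker, 4 stronger and 7 changed sign. Except for *PRPF19* as recorded, every weaker value was of *SMAD3*, the only one of the 10 genes that had passed. For the rest of the 10, staying on the same side of the threshold meant not passing. *SMAD3* lost its call in most of the alternatives. The number of genes past the threshold, 1089 over all genes, 1 among the 10 and 15 among the 6 lists, was 0, 0 and 0 as recorded under the sample labels, 2, 0 and 0 without NCb and siPrp19b, and 2, 0 and 0 with close pairs averaged, all of which have a larger spread within groups or fewer libraries. It was 512, 0 and 9 without the filter on low values, and with the same sum in every library 679 over all genes and 0 among the 10. Quantile normalization gave 2 of the 10 genes, *SMAD3* and *ID1*. Leaving out 1 library gave 253 to 1354 genes over all, 0 to 4 of the 10 and 5 to 21 of the lists. Over all genes these were 264 without NCa, 335 without NCb, 270 without siPrp19b and 253 without siPrp19c, the libraries of the close pairs. Without NCc or siPrp19a, which lie outside those pairs, 1354 and 1033 genes passed. Whether the closeness of the pairs narrowed the spread behind the p-values was not tested. The 4 of the 10 without NCc were *SMAD3*, *SMAD4*, *ID1* and *SKIL*. The share of higher genes among all calls was 32.4%, and 46.1% under quantile normalization and 54.5% with voom, where the median of all genes moved by 0.07. What moved these shares was not tested.

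Log2 fold changes of the opposite sign came from *ID3*, at -0.0742 as recorded, -0.0222 without NCb and siPrp19b, -0.0594 with close pairs averaged, -0.0132 without NCa, -0.0168 without NCb and -0.0410 without siPrp19c, and from *TGFBR2*, at 0.0581 as recorded. Across fits without 1 library, *ID3* ran from -0.0410 to 0.16.

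Deviations of same-numbered libraries from their group means correlated at 0.13, -0.05 and 0.20, and those of differently numbered libraries at -0.20 to 0.13. Deviations within a group sum to 0 and close pairs deviate together. These values therefore cannot show whether same-numbered libraries were paired. With the replicate block, 928 genes passed over all, 0 of the 10 and 14 of the lists, and *SMAD3* had an adjusted p of 0.0535 by limma. Among the called list genes, *CCN2*, *INHBE* and *CDKN2B* rested on at most 164 reads per library.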

Other observations

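The 5 SMAD genes of the set lie in 2 groups on the genome. *SMAD6* and *SMAD3* lie on chromosome 15 with 281 kb between them and no other tested gene in the gap, and both had a log2 fold change above 0 (0.19 and 0.37). *SMAD2*, *SMAD7* and *SMAD4* lie on chromosome 18, 989 kb and 2076 kb apart, and all had one below 0 (-0.19, -0.16 and -0.23). Of 184 tested genes on chromosome 18, 63.0% had a log2 fold change below 0, with a median of -0.08, and 10.3% passed the adjusted threshold by limma. On chromosome 15, 51.6% of 440 tested genes were below 0, with a median of -0.01, and 10.5% passed. Chromosome 18 had the lowest median of the chromosomes with over 1 tested gene, where the median of all tested genes was -0.02. Neighbouring genes are not independent and this was seen after the values were known.

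The summed FPKM of the 9 adrenergic markers was 305.5 to 324.0 in NC and 240.9 to 253.7 in siPrp19, and that of the 7 mesenchymal markers was 636.1 to 642.2 and 537.3 to 598.1. Both sums were lower in every siPrp19 library, but single genes weigh heavily in them. *HAND2*, also a partner of ID proteins, was at 117.4 to 169.9 FPKM in the first, and *COL1A1* at 348.0 to 401.0 FPKM in the second. *CHGB* was higher in siPrp19, at 3.29 to 4.63 FPKM against 1.81 to 2.00 in NC. The groups overlapped for *PHOX2A*, *ISL1*, *TH*, *PRRX1*, *FN1*, *SNAI2* and *COL1A1*, and the other markers were lower in every siPrp19 library.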
